A study of Mus musculus with 19 samples.

Results

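The Fos and Jun genes encode the subunits of AP-1, and their transcripts were followed here in the cerebral cortex of P301S/E4 mice. The 6 members, Fos, Fosb, Fosl2, Jun, Junb and Jund, were taken by gene symbol from the 55487 genes of each table, and all 6 passed the expression filter. The 19 libraries came from male mice recorded as 41 weeks old, all of the P301S/E4 genotype, so no group lacked P301S. In 10 libraries the mice had received lemborexant, a dual orexin receptor antagonist used against insomnia, at 30 mg/kg by daily gavage at zeitgeber time 13. In the other 9 the mice had received the vehicle, 0.5% methylcellulose. Dosing ran between 7.5 and 9.5 months of age. P301S is a mutation of the human tau gene that causes frontotemporal dementia, and the submitters call the line a tauopathy model. The labels give neither the promoter that drives the tau gene nor what E4 stands for. They do not tie each library to a mouse of its own, so the p-values below cover spread among libraries, which may be technical.

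AP-1 binds DNA as a dimer held together by a leucine zipper. Jun proteins pair with each other or with Fos proteins, while Fos proteins need a Jun partner. In cortical neurons Fos, Fosb and Junb are immediate early genes, switched on by calcium and MAP kinase signals after synaptic activity and widely used as marks of recent firing. Jun responds to growth and stress signals through the JNK kinases and can activate its own promoter, Jund is expressed more steadily, and glia also express these genes. The comparison with vehicle asks whether transcripts of this activity-linked family differed after repeated blockade of the receptors for orexin, the peptide that sustains wakefulness. The time between the last dose and tissue collection was not among the values used here. Lasting effects of the dosing and effects of the last dose were therefore not told apart.

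Fos (ENSMUSG00000021250) spans 85473890 to 85477273 on the plus strand of chromosome 12 in GRCm38. Fosb (ENSMUSG00000003545) lies at 19302696 to 19310051 on the minus strand of chromosome 7, and Fosl2 (ENSMUSG00000029135) at 32135801 to 32157842 on the plus strand of chromosome 5. Jun (ENSMUSG00000052684) lies at 95049034 to 95052222 on the minus strand of chromosome 4. Junb (ENSMUSG00000052837) at 84974484 to 84978718 on the minus strand and Jund (ENSMUSG00000071076) at 70698949 to 70700616 on the plus strand are both on chromosome 8. The annotation lists every member as a protein-coding gene, and values are totals over a gene's transcripts.

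The stretches upstream of Fos, Jun and Junb are shown because the Jun and Junb transcripts differed most between the groups and Fos did not follow them. Each holds the 250 bases before the RefSeq gene start (GRCm38.p6), 5′ to 3′ on the gene's strand: chr12:85473640-85473889 plus for Fos, chr4:95052223-95052472 minus for Jun and chr8:84978749-84978998 minus for Junb. Capitals mark TGACG, the core of the cAMP response element, and the 8-base form TGANNTCA of an AP-1 site or cAMP response element, on either strand.
Fos: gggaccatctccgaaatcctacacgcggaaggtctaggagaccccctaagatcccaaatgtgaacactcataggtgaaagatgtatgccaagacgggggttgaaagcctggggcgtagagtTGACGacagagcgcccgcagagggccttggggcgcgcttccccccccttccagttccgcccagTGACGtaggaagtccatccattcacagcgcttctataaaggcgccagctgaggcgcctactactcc
Jun: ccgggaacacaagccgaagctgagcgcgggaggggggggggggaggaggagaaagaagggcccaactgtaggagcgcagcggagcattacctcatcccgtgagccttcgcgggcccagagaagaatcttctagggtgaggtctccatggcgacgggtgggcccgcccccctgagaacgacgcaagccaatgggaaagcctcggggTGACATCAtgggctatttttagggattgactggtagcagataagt
Junb: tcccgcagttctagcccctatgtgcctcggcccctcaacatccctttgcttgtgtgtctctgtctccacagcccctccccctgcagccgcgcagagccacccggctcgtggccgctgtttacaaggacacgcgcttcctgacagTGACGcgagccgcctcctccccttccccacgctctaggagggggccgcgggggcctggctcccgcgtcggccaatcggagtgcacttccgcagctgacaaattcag
The Fos window held TGACG at positions -129 to -125 and -66 to -62, counted back from -1 at the base before the gene start, and the Junb window held it at -106 to -102. Jun held TGACATCA at -45 to -38, a match of TGANNTCA. Of the members not shown, Fosb held TGACG at -60 to -56 and Jund held TGAAATCA, also a match of TGANNTCA, at -61 to -54. The matches were thus not particular to the members that differed most. TGACG is contained in the full cAMP response element TGACGTCA, which is also a match of TGANNTCA. Over 32807 promoter windows of this length, 17.8% held TGACG and 11.9% TGANNTCA, while 6.75% held the 7-base AP-1 site TGANTCA and 1.55% TGACGTCA. Neither of the last pair, nor a CArG box, the site of serum response factor (in 1.47% of windows), was in any of the 6 members' windows. Sites farther upstream than 250 bases were not searched, so these genes may still have them. RefSeq and annotated starts also differ. The Jund window (chr8:70697489-70697738) ended before the annotated start at 70698949, and the Fosl2 window (chr5:32136222-32136471) lay inside the annotated gene. A match is a run of letters and not a shown binding site.

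Library totals ran between 20185098 and 31795633 estimated reads, and every member had at least 90 reads in every library. Lemborexant replicates 1 and 10, 3 and 8, and 4 and 9 formed 3 nearly alike pairs. Their chi-square, divided by its degrees of freedom, was 3.08 to 3.66, while the remaining 168 pairings of libraries gave 12.2 to 274. The labels do not say what these pairs share, so results are given for 19 libraries and for 16 units with each pair joined. All 8 markers of cortical excitatory neurons had reads in every library. Their summed level was 596 to 3540 CPM (reads scaled to the library total with TMM factors) in lemborexant libraries and 1916 to 3423 CPM in vehicle libraries, lowest in lemborexant 7 and 6 (596 and 877 CPM). All 10 hippocampal markers also had reads in every library, with summed levels of 104 to 411 CPM in lemborexant libraries and 327 to 527 CPM in vehicle libraries. In bulk tissue, fewer cells of a type and less RNA per cell cannot be told apart. Cst7, a gene of microglia that respond to tau and amyloid, was below 1 CPM in lemborexant 1 and 10 and in vehicle 1 and 4, and between 16.4 and 144 CPM in the other 15 libraries.

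None of the 6 AP-1 transcripts passed the threshold between lemborexant and vehicle libraries. Jun and Junb came closest, both lower after lemborexant, while Fos, Fosb, Fosl2 and Jund differed little on average. With edgeR's quasi-likelihood test and an adjusted p of 0.05, 0 of 6 members were called, against 2.61% of the 19105 genes tested (182 higher and 316 lower). At an unadjusted p under 0.05, 2 of 6 were lower, beside 13.5% of all genes, and none was higher, and 25.7% of all genes passed in either direction. With the pairs summed, 0 of 6 members and 0% of genes were called, although 4102 genes had an unadjusted p under 0.05. DESeq2 called 2 of 6, Jun and Junb, and 8.87% of all genes. With quality weights for the libraries, limma's voom called the same 2 and 11.6% of all genes. At an adjusted p of 0.1, edgeR called both and 11.2% of all genes. The median log2 change of the members was -0.07, beside 0.03 over all genes tested.

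**Figure D1:**
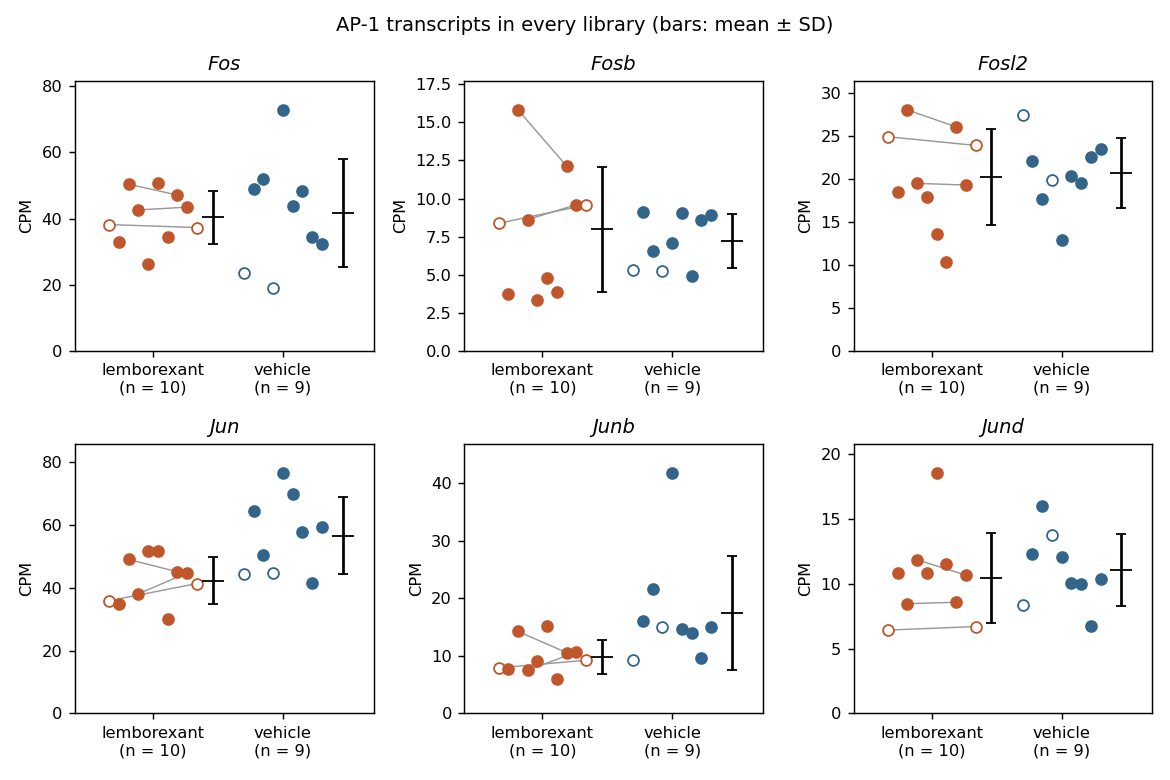
Level of each AP-1 transcript in CPM with TMM factors (linear axes from 0), with lemborexant libraries on the left and vehicle libraries on the right of each panel, replicates in order of their number. Open circles are libraries with Cst7 below 1 CPM, grey lines join nearly alike libraries, and black bars give the mean ± SD (n = 10 and 9). Junb was between 5.97 and 15.3 CPM after lemborexant and reached 41.8 CPM in vehicle replicate 5.

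Junb encodes a Jun protein that is induced quickly by activity and is a weaker activator than Jun at many sites. It stood at 5.97 CPM in the lowest lemborexant library, 9.12 at the median and 15.3 in the highest, and at 9.32, 14.9 and 41.8 CPM in vehicle libraries. The groups overlapped, with 6 of 10 lemborexant libraries below every vehicle library and 3 of 9 vehicle libraries above every lemborexant library. Lemborexant 1 and 10, a nearly alike pair, are both among those 6. Of the pair 4 and 9 only lemborexant 4 is (7.47 and 10.7 CPM). The share of all genes with such a separation was not counted. Junb averaged 9.80 ± 2.98 CPM after lemborexant and 17.4 ± 9.83 CPM after vehicle (SD, n = 10 and 9), giving a log2 change of -0.83 ± 0.24 (SE, 95% interval -1.34 to -0.33, edgeR adjusted p = 0.0619). With the pairs summed the log2 change was -0.85 ± 0.28 (SE, edgeR adjusted p = 0.128). Without vehicle 5, the highest library, it was -0.56 ± 0.18 (SE, edgeR adjusted p = 0.123), and 0.394% of all genes were called. Leaving out lemborexant 6, vehicle 1 or vehicle 8 put Junb past the threshold, with edgeR adjusted p-values of 0.0405, 0.0391 and 0.0368, where 5.95%, 4.39% and 6.62% of all genes were called. Vehicle 3 and 5, the libraries with the most Junb, had the lowest summed choroid plexus markers of all, 179 and 233 CPM. Lemborexant 7 and vehicle 1, next lowest at 255 and 294 CPM, had the least Junb of their groups, 5.97 and 9.32 CPM. Summed microglia markers were 1994 and 2002 CPM in vehicle 3 and 5, 734 CPM in lemborexant 7 and 454 CPM in vehicle 1. The part of either marker list in the Junb values was not tested. The far end of the annotated Junb gene overlaps Prdx2, a peroxiredoxin gene on the opposite strand, by 351 bases, and the strand setting of the counts is not given. Prdx2 had 286 ± 38.0 CPM after lemborexant and 338 ± 72.4 CPM after vehicle (SD, n = 10 and 9), giving a log2 change of -0.24 ± 0.11 (SE; p = 0.180 after adjustment, edgeR). Prdx2 had 5862 to 10317 reads a library, against 190 to 963 for Junb, and over the 16 units with group means removed the log2 CPM of both ran together (r = 0.73, given as a description). Its part in the Junb counts was not tested. Jun and Jund also overlap antisense genes, Junos with 5.20 to 28.0 reads and Gm11175 with 0 to 6.80 reads, whose reads cannot be told apart from theirs without strand.

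Jun, the founding AP-1 subunit and the main target of the JNK kinases, was 30.1 CPM in the lowest lemborexant library, 43.0 at the median and 51.7 in the highest. In vehicle libraries it was 41.4, 57.8 and 76.6 CPM. Here 5 of 10 lemborexant libraries lay below every vehicle library, and 5 of 9 vehicle libraries above every lemborexant library. Both libraries of the pair 1 and 10 are among the 5 lemborexant libraries, and of the pair 4 and 9 only lemborexant 4 is (38.0 and 44.7 CPM). The means were 42.2 ± 7.47 CPM after lemborexant and 56.5 ± 12.3 CPM after vehicle (SD, n = 10 and 9), giving a log2 change of -0.42 ± 0.13 (SE, 95% interval -0.68 to -0.16, edgeR adjusted p = 0.0669). With the pairs summed it was -0.43 ± 0.14 (SE, edgeR adjusted p = 0.138). Jun passed the threshold without lemborexant 6, vehicle 1 or vehicle 8, at edgeR adjusted p-values of 0.0453, 0.0469 and 0.0374. The score of the hippocampal markers, their mean centred log2 CPM, ranged from -1.52 to 0.52 in lemborexant libraries and from 0.38 to 0.72 in vehicle libraries. Their part in the Jun and Junb values was not tested. The sample titles carry a number. Among libraries numbered over 1000 (7 against 7) the log2 changes of Junb and Jun were -0.97 and -0.49. Among those numbered under 1000 (3 against 2) they were -0.27 and -0.20, and neither passed in either range (edgeR adjusted p = 0.0879 and 0.0901, then 0.9996 for both). In these ranges 0.0422% and 0% of all genes were called. The 3 lemborexant libraries of the lower range are each nearly alike to one of the higher range.

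Jund was 6.42 CPM in the lowest lemborexant library, 10.7 at the median and 18.5 in the highest, against 6.71, 10.4 and 15.97 CPM in vehicle libraries. Its coefficient of variation was 33.0% in lemborexant and 25.3% in vehicle libraries. That of Jun was 17.7% and 21.7%, so Jund was not the steadier of these 2 genes here. The groups overlapped, with 1 lemborexant library above and 2 below every vehicle library. Its log2 change was -0.09 ± 0.18 (SE, 95% interval -0.46 to 0.29, edgeR adjusted p = 0.797), and 0.01 ± 0.20 with the pairs summed (SE, edgeR adjusted p = 0.985).

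Fos, the classical mark of neuronal activation, did not pass, and its values ranged more widely in vehicle libraries. It ran from 26.4 CPM in the lowest lemborexant library through a median of 40.4 to 50.6 in the highest, and from 18.9 through 43.7 to 72.9 CPM in vehicle libraries. All 10 lemborexant libraries lay inside the vehicle range. Fos had 40.4 ± 7.92 CPM after lemborexant and 41.7 ± 16.5 CPM after vehicle (SD, n = 10 and 9), giving a log2 change of -0.05 ± 0.20 (SE, 95% interval -0.45 to 0.36, edgeR adjusted p = 0.901). The coefficient of variation was 19.6% in lemborexant libraries, or 22.5% over 7 units, and 39.5% in vehicle libraries. Junb (30.4% and 56.4%) and Jun (17.7% and 21.7%) also had the larger coefficient in vehicle libraries. Fosb (51.4% and 24.4%), Fosl2 (27.7% and 19.6%) and Jund had it in lemborexant libraries. The differences in spread were not tested.

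Fosb, whose truncated form accumulates under repeated stimulation, divided the lemborexant libraries. It was highest in lemborexant 3 and 8, at 15.8 and 12.1 CPM, and stood at 8.37 to 9.60 CPM in lemborexant 1, 4, 9 and 10. In lemborexant 2, 5, 6 and 7 it was 3.30 to 4.78 CPM, below every vehicle library (4.93 to 9.09 CPM). The medians were 8.49 CPM in lemborexant and 7.07 CPM in vehicle libraries. The 6 higher libraries are those of the nearly alike pairs. The score of the cortical excitatory neuron markers, their mean centred log2 CPM, was 0.17 to 0.58 in those 6 and -2.10 to -0.17 in lemborexant 2, 5, 6 and 7, and their summed level was 1588 to 3540 CPM and 596 to 1740 CPM. Vehicle libraries scored -0.33 to 0.55, and the part of these markers in the Fosb values was not tested. Fosb averaged 7.98 ± 4.10 CPM after lemborexant and 7.20 ± 1.76 CPM after vehicle (SD, n = 10 and 9), giving a log2 change of 0.15 ± 0.26 (SE, 95% interval -0.40 to 0.70, edgeR adjusted p = 0.750). With the pairs summed the sign turned, to -0.08 ± 0.28 (SE, 95% interval -0.66 to 0.51, edgeR adjusted p = 0.889).

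Fosl2, a Fos protein without the strong activating end of Fos, was also higher in the libraries of the nearly alike pairs than in lemborexant 2, 5, 6 and 7, but without a clear gap. The neuron marker scores separate the same libraries, and their part in its values was not tested. The libraries of the nearly alike pairs held 19.3 to 28.0 CPM and lemborexant 2, 5, 6 and 7 held 10.3 to 18.5 CPM, against 12.8 to 27.4 CPM in vehicle libraries. The medians were 19.4 CPM in lemborexant and 20.3 CPM in vehicle libraries, and the groups overlapped. Its log2 change was -0.03 ± 0.16 (SE, 95% interval -0.37 to 0.30, edgeR adjusted p = 0.920), or -0.14 ± 0.18 with the pairs summed (SE, edgeR adjusted p = 0.651).

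Within the nearly alike pairs Fos, Fosl2 and Jund differed least and Junb most. The higher library of a pair held 1.02 to 1.07 times the Fos of the lower, 1.01 to 1.08 times the Fosl2 and 1.01 to 1.11 times the Jund. For Jun the ratio was 1.09 to 1.18, for Fosb 1.11 to 1.30 and for Junb 1.17 to 1.43. The spread over all lemborexant libraries was wider than this for each member.

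**Figure D2:**
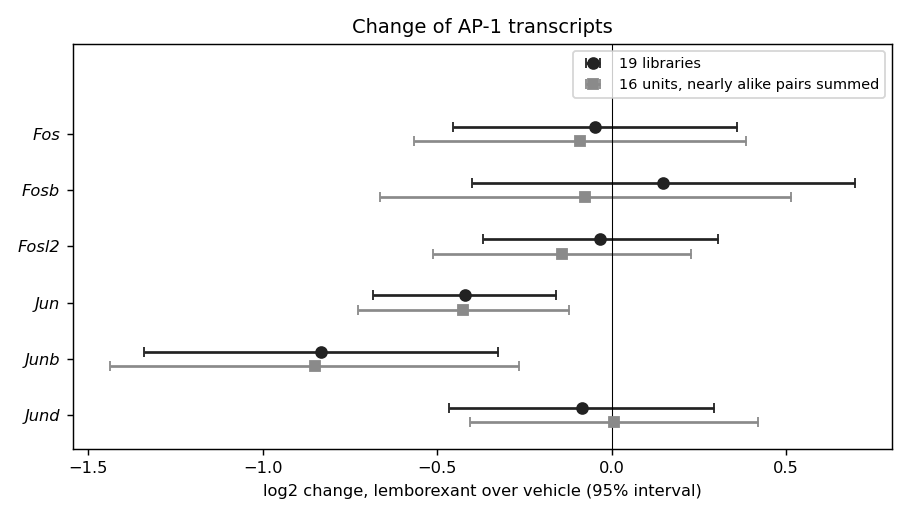
Log2 change of each AP-1 transcript, lemborexant over vehicle, from edgeR's quasi-likelihood fit across all genes, with 95% intervals. Black circles are 19 libraries and grey squares 16 units with nearly alike pairs summed. The intervals of Jun and Junb lay below 0 in both fits and those of the other members included 0.

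Per length, on the scale of the deposited TPM (scaled for gene length and depth), Fos and Jun were the most abundant members and Fosb the least. Fos averaged 33.3 ± 6.88 TPM in lemborexant libraries and 28.3 ± 8.81 TPM in vehicle libraries (SD, n = 10 and 9), and Jun 22.3 ± 3.10 and 25.8 ± 5.98 TPM. Jund followed at 15.1 ± 4.09 TPM after lemborexant and 13.4 ± 2.27 TPM after vehicle, and Junb at 10.3 ± 2.47 and 15.0 ± 5.87 TPM. Fosl2 stood at 4.80 ± 1.52 TPM after lemborexant and 4.28 ± 1.36 TPM after vehicle, and Fosb at 3.42 ± 1.99 and 2.60 ± 0.937 TPM. In order of mean TPM, only the step down to Fosl2 separated ranges that did not overlap, and this held in both groups. Fos exceeded Jun in 9 of 10 lemborexant libraries and in 5 of 9 vehicle libraries. Jund exceeded Junb in 8 of 10 lemborexant libraries, while Junb exceeded Jund in 5 of 9 vehicle libraries. Of the summed TPM of the 6 members, Fos made up 37.1 ± 4.20% after lemborexant and 31.0 ± 5.74% after vehicle (SD, n = 10 and 9), and Junb 11.4 ± 1.71% and 16.6 ± 4.49%. These shares do not depend on how the libraries were scaled against each other, and they were not tested.

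**Figure D3:**
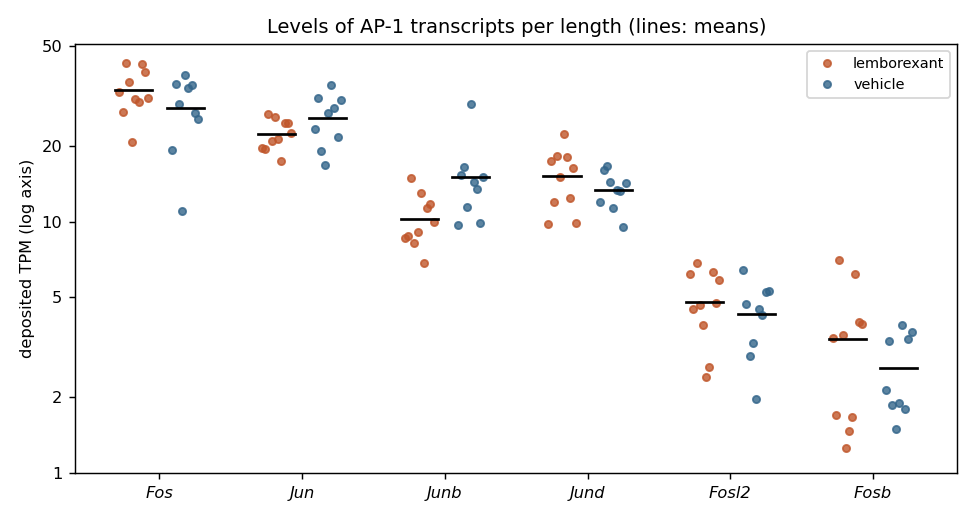
Deposited TPM of each AP-1 transcript on a log axis, lemborexant libraries on the left and vehicle libraries on the right of each gene (n = 10 and 9), with black lines at the means. Fos averaged 33.3 TPM after lemborexant and 28.3 TPM after vehicle, and Fosb 3.42 and 2.60 TPM.

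The TPM scale also placed the groups differently from the CPM with TMM factors. For Fos, 1 CPM was worth 0.605 to 0.907 TPM in lemborexant libraries and 0.527 to 0.819 TPM in vehicle libraries, lowest in vehicle 5. On log2(TPM + 1) the median change of all genes was 0.18, beside 0.03 in the count fit. On that scale the log2 change was -0.47 ± 0.17 for Junb and -0.18 ± 0.12 for Jun (SE, limma adjusted p = 0.0997 and 0.318). Relative to the median of all genes, Junb had a change of -0.64 and Jun of -0.35, against -0.86 and -0.45 in the count fit. These relative changes were not tested. Fos had 0.10 relative to the median on log2(TPM + 1) and -0.07 in the count fit, and limma on that scale called no member and 0.711% of all genes.

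The members did not vary as a block from library to library. Of the 15 pairs of members, compared over 16 units on log2 CPM, Jun and Junb had the closest relation (Pearson r = 0.82, Spearman rho = 0.81, permutation adjusted p = 0.0021 and 0.00495 over 15 pairs, unadjusted 0.00014 and 0.00033). It was 0.69 without the 2 units farthest from the median of Jun and 0.73 with the group means removed. On log2(TPM + 1) it was 0.49 and did not pass (permutation adjusted p = 0.213). Fosl2 and Jund tended to run in opposite directions, with r = -0.59 and rho = -0.71 (permutation adjusted p = 0.104 and 0.0179, unadjusted 0.0152 and 0.00239), and r = -0.77 without the 2 units farthest from the median of Fosl2. Only rho passed, and on log2(TPM + 1) r was -0.48. Fos with Junb (r = 0.57, rho = 0.56, permutation adjusted p = 0.104 and 0.0941, unadjusted 0.0220 and 0.0246) and Fosb with Fosl2 (r = 0.55, rho = 0.56, permutation adjusted p = 0.104 and 0.0941, unadjusted 0.0278 and 0.0251) did not pass. Without the 2 units farthest from the median their r was 0.62 and 0.50. The other 11 pairs had r between -0.36 and 0.48, and none passed.

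**Figure D4:**
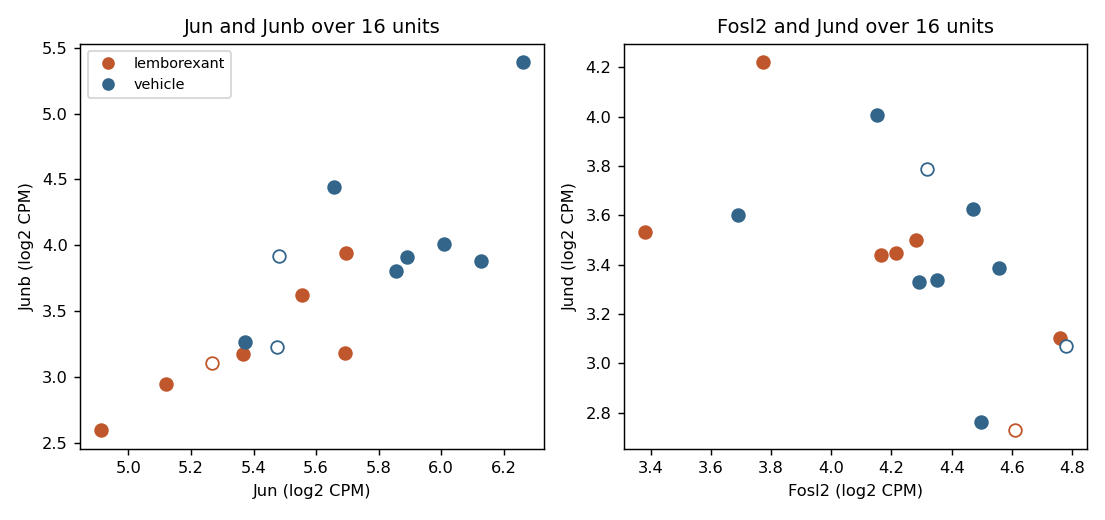
Junb against Jun (left) and Jund against Fosl2 (right), each point a unit of 1 library or of the mean of a nearly alike pair (7 lemborexant and 9 vehicle units, log2 CPM). Open circles are units with Cst7 below 1 CPM. Junb was high where Jun was high (r = 0.82), and Jund tended to be low where Fosl2 was high (r = -0.59, permutation adjusted p = 0.104).

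Genes whose levels ran most like each member were sought over the 16 units with the group means removed, among genes of at least 5 CPM. The correlations share the libraries and their scaling, and are given as a description. Fosb ran closest to other immediate early genes, Egr1 (r = 0.91, rho = 0.95) and Nr4a1 (r = 0.81, rho = 0.82), and to Frmd6 (r = 0.81). Junb ran closest to the immediate early gene Ier2 (r = 0.91, rho = 0.76), to the lipase gene Abhd12 and to Thap11 (both r = 0.89). For Fos the 3 closest genes were Zfp160 (r = 0.79), E4f1 and Egr2 (both r = 0.78). Fosl2 ran with Syt1, the calcium sensor of synaptic vesicles (r = 0.95, rho = 0.86), Zfp385b (r = 0.95) and Rnf165 (r = 0.94). The genes closest to Jun were Mta2, Asph (both r = 0.85) and Daglb (r = 0.83). Jund ran with Rps12-ps3, a ribosomal protein pseudogene whose reads can come from its parent gene, Sqstm1, the autophagy receptor p62 (both r = 0.94), and Smarca5 (r = 0.93). On log2(TPM + 1) the correlation with Smarca5 was 0.28, and those of the other 17 genes were 0.54 to 0.97.

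The split by Cst7 is made from a measured level and not from the labels, so its values are given without a test. In the 2 vehicle libraries with Cst7 below 1 CPM, vehicle 1 and 4, Fos stood at 23.5 and 18.9 CPM, below the 32.2 to 72.9 CPM of the other 7 vehicle libraries. Lemborexant 1 and 10, the nearly alike pair with Cst7 below 1 CPM, held 38.2 and 37.3 CPM of Fos, inside the 26.4 to 50.6 CPM of the other 8 lemborexant libraries. The low Fos of the vehicle libraries without Cst7 was thus not seen in that pair. Jund was 6.42 and 6.69 CPM in lemborexant 1 and 10, below the 8.45 to 18.5 CPM of the other lemborexant libraries, while vehicle 1 and 4 held 8.34 and 13.7 CPM, inside the 6.71 to 15.97 CPM of the others. Fosl2 was 24.9 and 23.9 CPM in lemborexant 1 and 10, within the 10.3 to 28.0 CPM of the other lemborexant libraries. In vehicle 1, at 27.4 CPM, it was above the 12.8 to 23.5 CPM of the vehicle libraries with Cst7, and vehicle 4 had 19.8 CPM. Fosb, Jun and Junb were within the range of the other libraries of the same group in all 4, except that Junb in vehicle 1, at 9.32 CPM, was just under the 9.54 CPM of the lowest other vehicle library. With the 4 libraries left out, the log2 changes of Junb and Jun were -0.92 ± 0.27 and -0.48 ± 0.14 (SE, edgeR adjusted p = 0.0731 and 0.0605), and that of Fos was -0.22 (edgeR adjusted p = 0.447), with 2.71% of all genes called.

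The 13 units with Cst7 of at least 1 CPM were compared further after the values were seen, so their correlations with Cst7 are a description and are given without a test. On log2 CPM, Jund had r = 0.73 and rho = 0.65 with Cst7, 0.80 without the 2 units farthest from the median of Cst7, and 0.72 and 0.87 within the 6 lemborexant and the 7 vehicle units. Junb had r = 0.62 and rho = 0.68, with 0.35 within the lemborexant and 0.89 within the vehicle units. Jun had r = 0.55 and Fos r = 0.39, while Fosb and Fosl2 had r of -0.38 and -0.36. On log2(TPM + 1) the r was 0.38 for Jund, 0.45 for Junb, 0.14 for Jun, -0.22 for Fos, -0.65 for Fosb and -0.60 for Fosl2, so the values for the Jun genes were lower on that scale and that of Fos had the other sign.

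**Figure D5:**
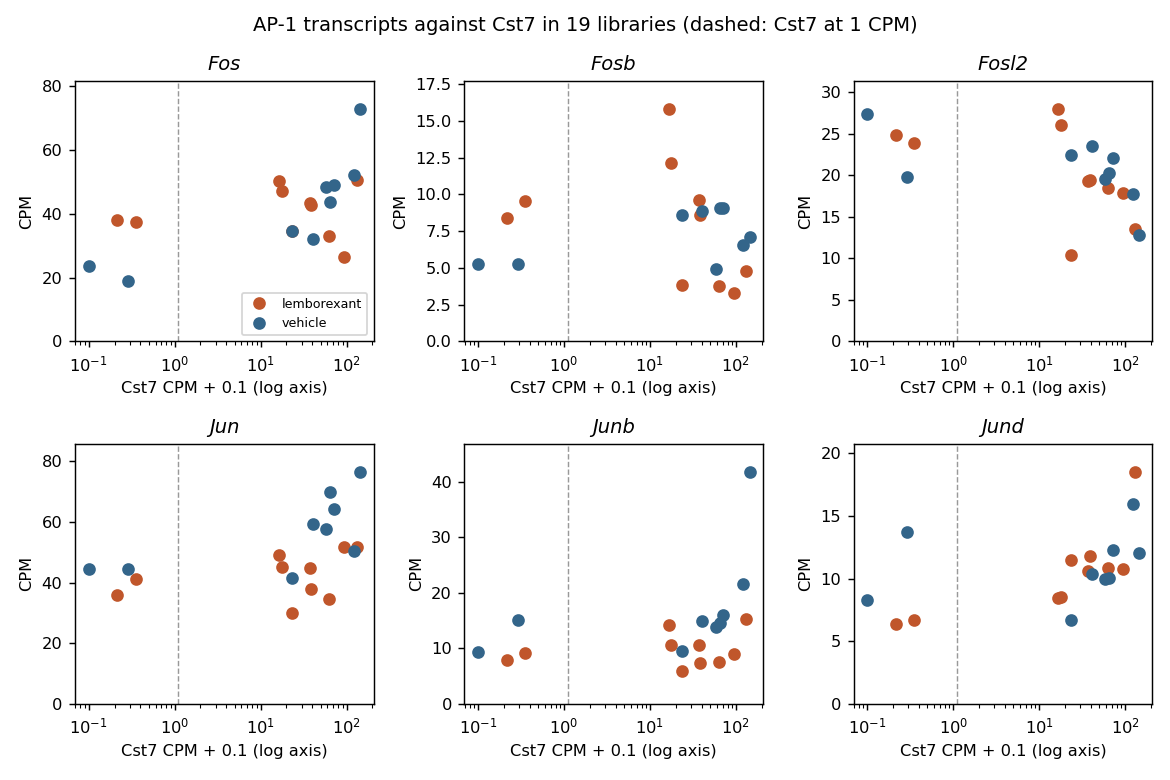
Level of each AP-1 transcript (CPM, linear axis from 0) against Cst7 (CPM + 0.1, log axis) in 19 libraries, lemborexant in orange and vehicle in blue, with the dashed line at a Cst7 of 1 CPM. The 2 vehicle libraries left of the line had the lowest Fos of all, at 23.5 and 18.9 CPM, while the 2 lemborexant libraries there had 38.2 and 37.3 CPM.

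Other genes of the AP-1 pathway were read from the same fit by role. Of 13 further AP-1 and dimer partner genes, 12 were tested and none passed, with a median log2 change of 0.06. Jdp2, which encodes a repressor that pairs with Jun, had -0.64 ± 0.19 and Mafk, a small Maf protein, -0.22 ± 0.13 (SE, edgeR adjusted p = 0.0623 and 0.277). Fosl1, the Fos gene that is not among the 6, reached at most 0.781 CPM in any library and was not tested. Of 20 kinases upstream of AP-1, 1 rose and none fell, beside 0.953% and 1.65% of all genes, with a median of 0.00. With the pairs summed, none of the 20 was called. It was Map3k5, the stress kinase ASK1 that acts upstream of JNK and p38, with 13.1 CPM after lemborexant and 10.2 CPM after vehicle, a log2 change of 0.35 ± 0.09 (SE; p = 0.0363 after adjustment, edgeR, or 0.101 with the pairs summed). It was called in 10 of 19 fits that each left out 1 library, where 1.57% to 6.62% of all genes were called. It was not called without lemborexant 2, 4, 8 or 9 or vehicle 2, 3, 4, 5 or 6 (highest edgeR adjusted p = 0.0779). In those fits only 0.164% to 1.43% of all genes were called. Of 19 transcription factors and cofactors that act on the Fos and Jun promoters none passed (median 0.08). Among them, Mef2c had a log2 change of 0.96 ± 0.30 and Elk1 of -0.41 ± 0.14 (SE, edgeR adjusted p = 0.0751 and 0.0824). None of 7 genes for turnover and cofactors of Jun passed (median 0.04), and Cops5, a subunit of the COP9 signalosome that binds Jun, had -0.15 ± 0.08 (SE, edgeR adjusted p = 0.258).

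Of 21 genes described as AP-1 targets in various tissues, 18 were tested and none passed (median -0.05). Pdyn, the precursor of dynorphin, had 33.0 ± 36.5 CPM after lemborexant and 13.8 ± 2.25 CPM after vehicle (SD, n = 10 and 9), with 135 CPM in lemborexant 7 and at most 31.7 CPM in the other lemborexant libraries. Its log2 change was 1.26 ± 0.36 (SE, edgeR adjusted p = 0.0602, or 0.101 with the pairs summed). Without lemborexant 7 it was 0.64 and passed (edgeR adjusted p = 0.0352), where 2.44% of all genes were called. Summed thalamic and hypothalamic markers were 2547 CPM in lemborexant 7 and 124 to 397 CPM in the other lemborexant libraries. Their part in the Pdyn values was not tested. Pdyn was called in only 3 of 19 fits that each left out 1 library (highest edgeR adjusted p = 0.122). Nptx2, a synaptic pentraxin, had a log2 change of -0.65 ± 0.19 (SE; p = 0.0602 after adjustment, edgeR). Of 24 other immediate early genes tested, 2 fell and none rose, beside 1.65% and 0.953% of all genes. Of the 24, 16 had log2 changes below 0, beside 46.4% of all genes (median -0.23, beside 0.03 over all genes). Nr4a3, an orphan nuclear receptor, fell to 8.84 ± 2.73 CPM after lemborexant against 16.6 ± 2.31 CPM after vehicle (SD, n = 10 and 9), and Egr4, a zinc finger factor, to 1.30 ± 0.532 against 2.91 ± 1.15 CPM. Their log2 changes were -0.91 ± 0.17 and -1.16 ± 0.29 (SE, edgeR adjusted p = 0.0228 and 0.0377, or 0.0711 and 0.0834 with the pairs summed). Nr4a3 was called in 19 of 19 fits that each left out 1 library, where 0.164% to 6.62% of all genes were called. Egr4 was called in 10, and lost its call without the same 9 libraries as Map3k5 (highest edgeR adjusted p = 0.0804). Those 9 fits called the fewest genes, 0.164% to 1.43% of all, against 1.57% to 6.62% in the 10 others, so the shared loss is not particular to these genes.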

How the data were processed

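Cortical RNA-seq libraries of lemborexant- and vehicle-treated mice were grouped by the treatment label. The deposited tables hold, per gene, an estimated count and a TPM value, which the authors made with bcl2fastq and DRAGEN 3.9.3-8 on GRCm38, per the submitters' processing notes. What annotation release, strand setting and filters they used is not given in the sources used here. Ensembl identifiers were matched to symbols (55141 of 55487 genes). Estimated counts were rounded, filtered with filterByExpr, scaled with TMM factors and tested with edgeR 4.0.16 (R 4.3.3, quasi-likelihood, Benjamini-Hochberg adjustment over all genes, threshold 0.05), after a test on simulated data. CPM use the same factors, and log2 CPM a prior count of 2. Nearly alike libraries, whose chi-square over its degrees of freedom was under 5, were summed for the 16 units, or averaged for correlations, whose p-values come from 100000 permutations, two-sided. The alternatives were DESeq2 1.42.0, limma 3.58.1 (voom with library quality weights, and log2(TPM + 1) or log2(TPM + 0.1) for genes of at least 1 TPM on average), RLE factors, no filter and left-out libraries. Depth limits precision through the reads per member, and intervals of the fits cover spread among libraries. Members, lists and comparisons were chosen with earlier results of these data known. From each list, genes past the threshold were named (up to 3), or otherwise the 2 with the smallest p, and for each member the 3 most correlated genes. One gene that this rule names is not reported here. The design text says triplicate, whereas the labels give 10 and 9 libraries.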

Additional observations from a re-analysis of the deposited data

Results flagged for a closer look

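Junb in vehicle replicate 5 stood far above the other vehicle libraries, at 41.8 CPM where the next highest had 21.7 CPM. The gap was 0.62 of the vehicle range, past Dixon's critical value of 0.493 for 9 libraries, and 0.44 on the log2 scale, which is below it. In CPM the same library had the highest Fos and Jun of all, at 72.9 and 76.6 CPM, and the lowest Fosl2 of the vehicle libraries, at 12.8 CPM. In TPM its Junb (29.2) and Fosl2 (1.98) were still the highest and lowest of the vehicle libraries. Its Fos was 38.4 TPM, below the 42.6 TPM of lemborexant 3, and its Jun 26.9 TPM, the vehicle median.

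Jund in lemborexant replicate 6 stood far above the other lemborexant libraries, at 18.5 CPM where the next highest had 11.8 CPM. The gap was 0.55 of the lemborexant range, past the critical value of 0.466 for 10 libraries, and 0.42 on the log2 scale, which is below it. That library had the highest summed markers of microglia (2372 CPM), disease-associated microglia (1194 CPM), astrocytes (12968 CPM) and oligodendrocytes (13588 CPM) of all 19, and the second lowest of cortical excitatory neurons (877 CPM). Lemborexant 7, with the lowest neuron markers (596 CPM), had 11.5 CPM of Jund. The part of these markers in the result was not tested. Chance marks about 1 in 20 groups in this way, and 12 groups were looked at.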

How the results depend on the processing

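Jun and Junb were negative in all 48 alternative fits, with log2 changes of -0.49 to -0.18 for Jun and -0.99 to -0.27 for Junb, but their calls depended on the test. DESeq2 called 2 members (Jun -0.43 and Junb -0.85, adjusted p = 0.0265 and 0.0193), as did limma's voom (-0.45 and -0.55, adjusted p = 0.00973 and 0.0278) and edgeR at an adjusted p of 0.1. The number of genes called was 498, against 254 without a filter, 1892 with DESeq2, 2217 with voom, 118 with log2(TPM + 1), 26 with log2(TPM + 0.1), 294 with the number range as a covariate, 8 over 1000, 307 without lemborexant 7 and vehicle 7, and 2137 at 0.1. It was 0 with the pairs summed, with or without the libraries with Cst7 below 1 CPM, and 0 under 1000.

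Signs of uncalled members turned. Fos was 0.034 with voom, 0.27 and 0.28 on log2(TPM + 1) and log2(TPM + 0.1), 0.36 under 1000 and 0.0047 without lemborexant 7 and vehicle 7. Fosl2 was 0.13 and 0.16 on the TPM scales, 0.0095 under 1000 and 0.035 without lemborexant 7 and vehicle 7. Jund was 0.14 and 0.15 on the TPM scales, 0.0072 with the pairs summed, 0.019 under 1000, and 0.037 without the libraries with Cst7 below 1 CPM or 0.10 with the pairs summed as well. Fosb was -0.075 with the pairs summed, -0.0035 without those libraries and -0.26 with both.

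Leaving out 1 library gave 31 genes (without lemborexant 9) to 1274 (without vehicle 8), with 35, 39 and 76 without lemborexant 4, vehicle 4 and vehicle 5, and 0 to 2 members called. Leaving out 1 unit gave 0 to 818 genes and 0 members. Over both kinds, Fos was -0.19 to 0.095, Fosb -0.34 to 0.24, Fosl2 -0.25 to 0.039, Jun -0.48 to -0.36, Junb -0.99 to -0.56 and Jund -0.21 to 0.10.

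The correlation of Jun and Junb was 0.49 in TPM, and that of Fosl2 and Jund -0.48. With 19 libraries counted separately, an alternative chosen after seeing the data, Fosl2 with Jund was -0.63 and Fosb with Fosl2 0.60, and both passed (permutation adjusted p = 0.0301 and 0.0313). That alternative counts the nearly alike libraries as independent, so its p-values are too small. Over 16 units neither r passed (permutation adjusted p = 0.104 for both). The correlation with Cst7 in TPM was -0.22 for Fos and 0.38 for Jund. The cause of these shifts was not tested. No paired analysis was possible because the labels carry library numbers that no lemborexant and vehicle libraries share.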

Other observations

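Markers of other cell types and regions ranged widely among the cortical libraries. In summed CPM, lemborexant libraries ranged from 323 to 2372 for microglia, 82.2 to 1194 for disease-associated microglia, 3266 to 12968 for astrocytes and 4145 to 13588 for oligodendrocytes. Vehicle libraries ranged from 454 to 2002, 79.8 to 859, 2613 to 12038 and 5039 to 10087 for the same lists. Endothelial markers summed to 175 to 324 CPM in lemborexant and 157 to 305 CPM in vehicle libraries, and meningeal fibroblast markers to 53.5 to 301 and 66.8 to 159 CPM. Choroid plexus markers ran from 255 to 13479 CPM in lemborexant and from 179 to 11146 CPM in vehicle libraries. Thalamic and hypothalamic markers reached 2547 CPM in lemborexant 7 and 124 to 397 CPM in the other lemborexant libraries, against 91.2 to 147 CPM in vehicle libraries. Striatal markers summed to 54.7 to 146 CPM in lemborexant and 47.8 to 81.1 CPM in vehicle libraries, and erythrocyte markers to 21.9 to 178 and 8.09 to 277 CPM. The hepatocyte score, a mean centred log2 CPM, was 7.33 in vehicle 7, the highest of all libraries. The part of these markers in the AP-1 values was not tested.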
